A study of Mus musculus with 12 samples.

Results

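Dbp, Tef, Hlf, Nfil3, Ciart, Rora, Bhlhe40 and Bhlhe41 were read from an RNA-Seq table of mouse liver. They are 8 of the 55385 features in the table. They were found in the table by gene name and encode regulators of transcription that carry the signal of the circadian clock to other genes or feed back on it. All 8 passed the filter of a mean of at least 1 TPM, as did 16378 features in all.

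The study asked whether the human lncRNA hGULL can stand in for its mouse counterpart mGULL in the liver. Male C57BL/6 mice of 7 weeks received adenovirus, in total 500000000 plaque-forming units in each group, and livers were collected after 7 days. Ad-Ctrl mice received the Lac and pAdv5 viruses, Ad-shmGULL mice a virus with a short hairpin RNA against mGULL plus pAdv5, and Ad-shmGULL+hGULL mice the hairpin virus plus one expressing hGULL. Each group had 4 liver samples, and all 12, controls included, came from virus-injected animals. The labels name an intravitreal injection and the methods of the study also describe a retro-orbital one. Time of day at killing is not given in the sources used here, and whether it was equal across the groups was not tested. The labels do not state that each sample is a separate mouse, so the p-values measure the spread between these samples, called mice below. The level of mGULL was not analysed here, so the knockdown itself was not checked in these values.

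In the liver clock, CLOCK and BMAL1 activate genes through the E-box, a short DNA element, and several of their targets encode transcription factors with daily rhythms of their own. Dbp, Tef and Hlf are the PAR bZIP activators, which bind the D-box of genes for drug, bile acid and lipid metabolism, and Nfil3 (E4BP4) is the repressor that competes for the same element. Rora activates through the ROR response element, where the REV-ERB receptors repress, while Ciart (CHRONO), Bhlhe40 (DEC1) and Bhlhe41 (DEC2) repress CLOCK and BMAL1 activity.

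On the GRCm38.p6 assembly, RefSeq places Ciart at chr3:95878500-95882257, Bhlhe40 at chr6:108660629-108666925 and Bhlhe41 at chr6:145858243-145865420. Dbp lies at chr7:45705100-45710203, Rora at chr9:68653404-69388246 and Hlf at chr11:90336535-90390917. Nfil3 lies at chr13:52967209-52982878 and Tef at chr15:81802673-81826863. A RefSeq promoter window, from 250 bases before to 50 after an annotated start, was at hand for 7 of the 8 genes (8 windows, with a pair of starts for Tef), and Bhlhe40 had none. The windows were searched on both strands for the E-box CACGTG, the D-box TTANGTAA, the ROR element core TAGGTCA or TGGGTCA and the cyclic AMP response element TGACGTCA. The stretches below are shown because they hold the matches, which are in capitals, and each is printed 5′ to 3′ on the strand of its gene.
Ciart, chr3:95882247-95882364, minus strand: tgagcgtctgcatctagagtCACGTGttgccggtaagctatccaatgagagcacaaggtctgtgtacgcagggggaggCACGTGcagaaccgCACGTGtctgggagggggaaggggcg
Tef, first start, chr15:81802526-81802571, plus strand: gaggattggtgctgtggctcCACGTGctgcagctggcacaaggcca
Tef, second start, chr15:81811256-81811301, plus strand: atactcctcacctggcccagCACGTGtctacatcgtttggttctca
Bhlhe41, chr6:145865548-145865593, minus strand: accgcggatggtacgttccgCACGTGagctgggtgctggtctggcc
Nfil3, chr13:52981040-52981071, minus strand: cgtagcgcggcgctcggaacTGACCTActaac
Hlf, chr11:90390918-90390946, minus strand: tcggcgcgcggtgcgggcccTGACGTCAc

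Ciart held 3 E-boxes, beginning 116, 58 and 44 bases before its start, and 29 of all 32851 RefSeq windows (0.0883%) held 3 or more. An E-box stood 127 and 138 bases before the starts of Tef and 153 bases before that of Bhlhe41, against 7.15% of all windows with at least 1. Nfil3 carried the ROR element core on the strand opposite the gene, so it reads TGACCTA above (6.45% of all windows). It stood 12 bases before the annotated start of that window, which lies within the gene span given above and not at its 5′ end. Hlf carried the cyclic AMP response element 9 bases before its start (1.79%). Dbp and Rora held none of the 4 motifs, no member window held a D-box (2.32% of all windows), and no match overlapped another. These are matches of letters in a short window and were not measured as binding sites.

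**Figure D1:**
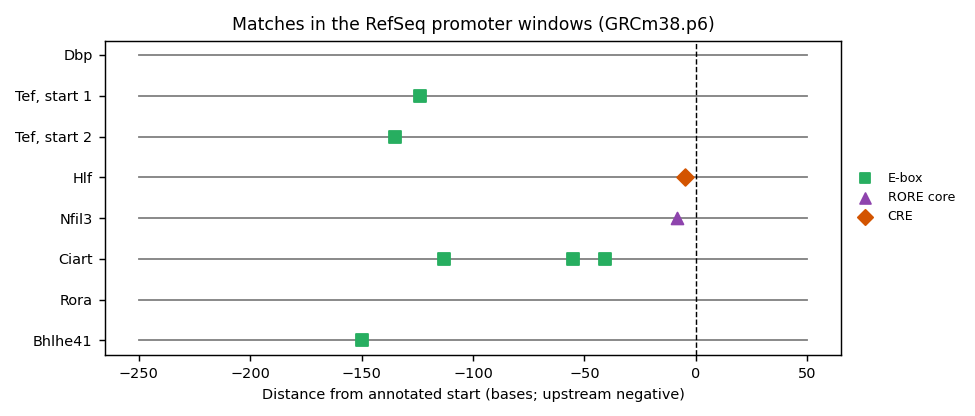
Matches to 3 of the 4 motifs searched in the RefSeq promoter windows of 7 genes, by distance from the annotated start in bases. Ciart holds 3 E-boxes, Tef 1 at each start and Bhlhe41 1, while Nfil3 and Hlf hold a ROR element core and a cyclic AMP response element and the lines of Dbp and Rora are empty.

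After knockdown of mGULL, Bhlhe40 rose 1.84-fold on the log2(TPM + 1) scale, and it was the member that passed the test over all genes. Hlf was 1.37-fold and Tef 1.14-fold the control level after knockdown, and neither passed. Nfil3, Ciart, Rora, Dbp and Bhlhe41 had intervals of the change that included 0. When hGULL was added to the knockdown, Bhlhe40 stood at 0.75 of its knockdown level without passing the test, and Hlf was at 1.46-fold its control level, which did not pass either.

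Levels are given in TPM, a measure of transcript abundance scaled for gene length and library total, so that genes can be compared within a mouse. Changes are differences of mean log2(TPM + 1), which understate the change of low genes such as Bhlhe41. They were tested with limma in 1 fit of the 3 groups, with p-values adjusted by Benjamini and Hochberg over the 16378 tested features, and a gene was called at an adjusted p under 0.05. Each comparison shares a group with both others, so the 3 sets of values are not independent. The deposited values do not give the depth of a library. In bulk liver, fewer cells of a type and less RNA per cell cannot be told apart.

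The 6 hepatocyte markers summed to 71852 to 107586 TPM in Ad-Ctrl, 77954 to 91871 TPM in Ad-shmGULL and 65231 to 79010.2 TPM in Ad-shmGULL+hGULL. Their median log2 change in rescue against control was -0.23, beside 0.17 over all tested features, and none was called. The tested markers of 8 other cell types numbered 7 for T, 2 for NK and 3 for B cells, 8 for macrophages and 3 for neutrophils. They numbered 6 for endothelial cells, 6 for stellate cells and 4 for cholangiocytes. Of all these 1 was called in any comparison, the sinusoidal endothelial gene Stab2, named after its values were seen. Its log2 fold change after knockdown was 0.54 (limma adjusted p = 0.0476), in a comparison where 3.23% of all tested features were called. Over the 6 endothelial markers the summed level ran from 107.5 to 187 TPM in Ad-Ctrl, from 172 to 239 TPM in Ad-shmGULL and from 174 to 209 TPM in Ad-shmGULL+hGULL, with no marker at 0 in a whole group. The sum of 8 macrophage markers ran from 432 to 754, from 408 to 720.1 and from 504 to 654 TPM in the same order. Neutrophil sums (4 markers) ran from 100 to 234, from 118 to 272 and from 88.4 to 139 TPM. Their median log2 change in rescue against knockdown was -0.78 over 3 tested markers, with none called. B cell sums (4 markers) ran from 5.00 to 8.04, from 7.40 to 9.70 and from 5.30 to 6.23 TPM, so knockdown and rescue lay apart. So did 6.38% of all tested features in that comparison, and only 3 of the 4 B cell markers passed the filter, with none called. The sums of T cell, NK cell, stellate cell and cholangiocyte markers overlapped between all groups. The part of these cells in the changes below was not tested.

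Among the PAR bZIP activators, Dbp was the most abundant, with a mean over the 12 mice of 125 TPM that lay above 94.1% of the tested features. In Ad-Ctrl mice 1 to 4 it measured 125, 159, 88.4 and 98.9 TPM. In the Ad-shmGULL mice it measured 142, 115, 141 and 158 TPM, and in the Ad-shmGULL+hGULL mice 147, 110.5, 137 and 79.9 TPM. The spread within the control and rescue groups was wide (coefficients of variation of 26.8% and 25.2%, against 12.6% after knockdown) and the 3 groups overlapped. The change after knockdown was 0.27 on the log2 scale (95% interval -0.18 to 0.71, limma adjusted p = 0.508), and the rescue group differed from the knockdown group by -0.26 (-0.71 to 0.18, adjusted p = 0.639).

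Tef varied least of the 8 in control mice. Its levels were 84.3, 90.8, 87.6 and 85.2 TPM in Ad-Ctrl (coefficient of variation 3.35%), 103, 95.6, 92.6 and 108 TPM in Ad-shmGULL, and 103, 87.9, 104 and 87.7 TPM in Ad-shmGULL+hGULL. Every knockdown mouse lay above every control mouse, and 8.99% of all tested features lay apart in that comparison. The rescue mice formed a pair near the control range and a pair near the knockdown range. The change after knockdown was 0.20 (95% interval 0.02 to 0.37), which had an unadjusted limma P of 0.0316 and did not pass over all genes (adjusted p = 0.196). After scaling by the median of ratios it was 0.09, and the rescue minus control difference of 0.13 turned to -0.07.

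Hlf showed levels of 27.5, 28.5, 35.8 and 31.4 TPM in Ad-Ctrl. They were 34.5, 51.3, 37.2 and 48.9 TPM in Ad-shmGULL and 52.5, 46.8, 41.3 and 41.5 TPM in Ad-shmGULL+hGULL. Only 1 knockdown mouse fell within the control range, and all 4 rescue mice lay above all 4 control mice. Rescue and control also lay apart in 22.3% of all tested features, with 3508 features higher in rescue and 140 lower. The difference after knockdown was 0.45 (95% interval 0.16 to 0.75, limma adjusted p = 0.0857) and the rescue group exceeded the control group by 0.55 (0.25 to 0.84, adjusted p = 0.0542; exact two-sided permutation p = 0.0286, the smallest that 4 against 4 allows). Neither passed over all genes, and the rescue and knockdown groups differed by 0.09 (-0.20 to 0.39). In the rescue minus control comparison the median change of all tested features was 0.17, and relative to it Hlf was 0.38 higher. The 20 highest features held a smaller share of RNA in the rescue mice, 24.6% to 26.6% against 29.4% to 32.9% in the control mice. Rescaled without the 20 highest features, the median change of all tested features was 0.09, and the cause of the shift was not tested. After scaling by the median of ratios the difference of Hlf between rescue and control was 0.35 (limma adjusted p = 0.212), and it passed in 6 of 23 alternatives. Among these were the fits without Ad-shmGULL 1 (adjusted p = 0.0364), Ad-shmGULL 2 (0.0371) or Ad-shmGULL 3 (0.0475), mice that enter this comparison only through the shared estimate of spread.

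Summed over the 3 activators, the level was 236 ± 30.6 TPM (mean ± SD, n = 4) in Ad-Ctrl, 282 ± 22.9 TPM in Ad-shmGULL and 259.7 ± 41.2 TPM in Ad-shmGULL+hGULL, and the ranges overlapped. Dbp supplied 49.4% ± 6.90, 49.3% ± 3.60 and 45.0% ± 4.82 of that sum, and Hlf 13.3% ± 2.99, 15.3% ± 3.14 and 17.7% ± 2.32. These sums and shares are descriptions and were not tested.

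Nfil3, the repressor at the same element, measured 19.5, 20.9, 31.3 and 31.6 TPM in Ad-Ctrl, 23.4, 26.3, 26.4 and 23.3 TPM in Ad-shmGULL and 21.6, 22.2, 27.2 and 33.7 TPM in Ad-shmGULL+hGULL. The control mice split into a lower and a higher pair that enclosed every knockdown mouse. The change after knockdown was -0.02 (95% interval -0.40 to 0.35, limma adjusted p = 0.962), and its sign turned when Ad-Ctrl 3, Ad-Ctrl 4, Ad-shmGULL 1 or Ad-shmGULL 4 was left out, with values up to 0.08. The ratio of the summed activators to Nfil3 ranged from 6.76 to 13.3 in Ad-Ctrl, from 9.96 to 13.5 in Ad-shmGULL and from 6.20 to 14.0 in Ad-shmGULL+hGULL.

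**Figure D2:**
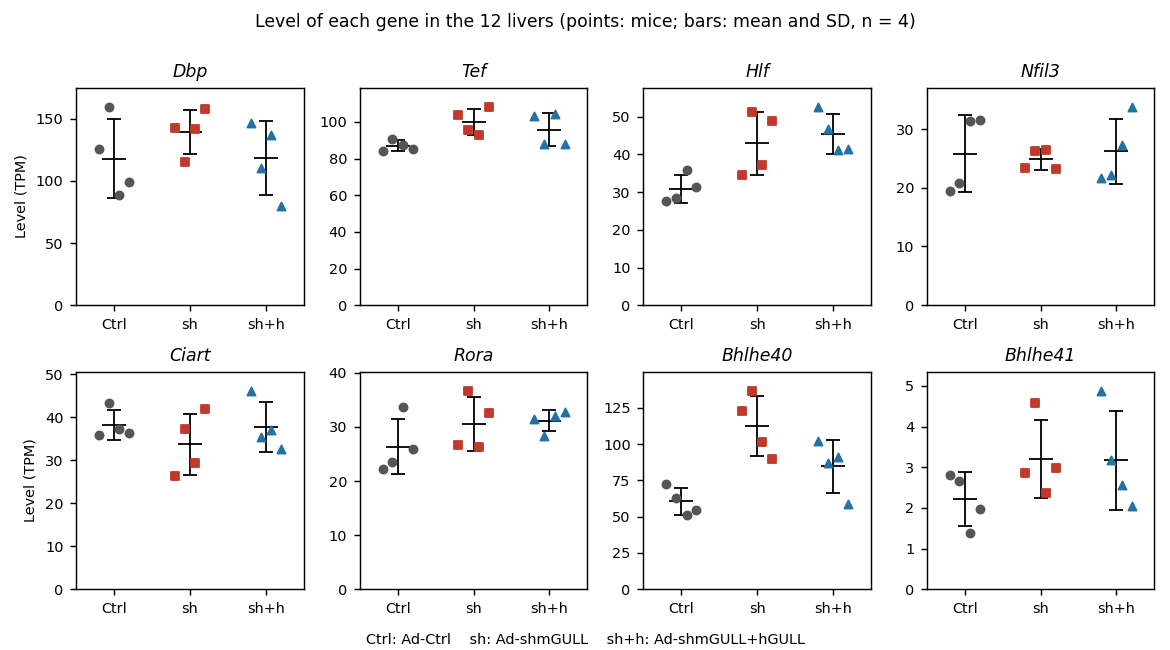
Level in TPM of the 8 genes in each of the 12 livers, with each panel from 0 on its own axis; points are mice and bars the mean and SD of 4. Bhlhe40 after knockdown (89.6 to 136 TPM) and Hlf in the rescue group (41.3 to 52.5 TPM) lie wholly above the control mice. Tef after knockdown does so too, and the control mice split into pairs for Nfil3. Of all tested features, groups lay apart in 8.99% after knockdown and in 22.3% in rescue against control.

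Dbp was compared with each other member across mice, within the groups. Over the deviations of the 12 mice from their group means, Dbp and Nfil3 had a Pearson r of -0.79 (permutation p = 0.0305) and a Spearman rho of -0.78 (permutation p = 0.0261). Adjusted over the 7 pairs of Dbp with another member, the permutation p-values were 0.118 and 0.0912, so the relation did not pass. Without the 2 mice farthest from the median of Dbp, Ad-Ctrl 2 and Ad-shmGULL+hGULL 4, r was -0.67, and after scaling by the median of ratios it was -0.49. For Tef r was 0.66 (permutation p = 0.0337, adjusted 0.118) and rho 0.73 (permutation p = 0.0207, adjusted 0.0912), with r of 0.57 without the same 2 mice. Hlf had an r of -0.17 (permutation p = 0.585) and a rho of -0.21 (permutation p = 0.490). Its r differed in sign between the groups of 4, at -0.84 in Ad-Ctrl, -0.32 in Ad-shmGULL and 0.54 in Ad-shmGULL+hGULL. That of Bhlhe40 did as well, at 0.73, -0.87 and 0.97 in the same order, and these values were not tested. The lowest adjusted permutation p of the other 5 pairs was 0.175. No sequencing batch or date is given in the labels, so no value within batches could be computed.

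**Figure D3:**
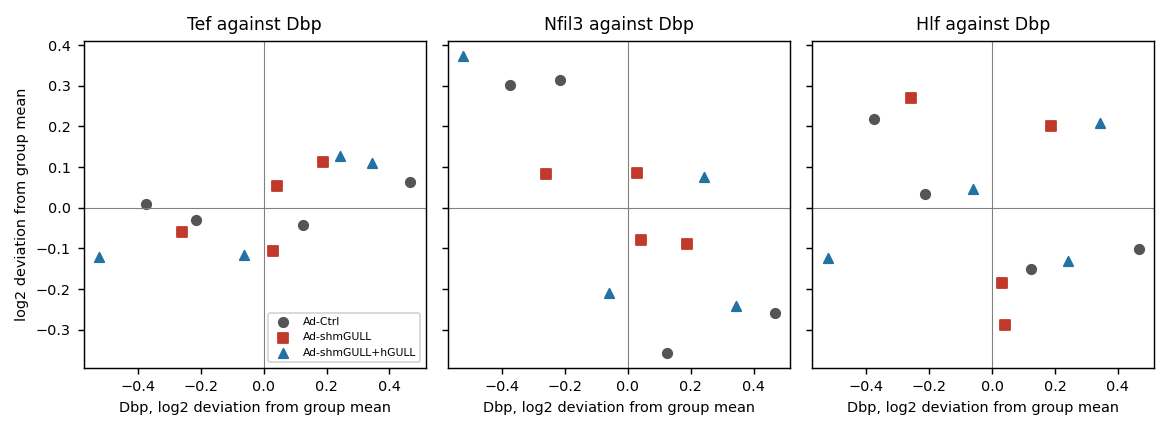
Log2 deviation of Tef, Nfil3 and Hlf from the group mean in each mouse, against that of Dbp; symbols mark the 3 groups. Nfil3 lies lower where Dbp is higher (r -0.79, 12 mice) and Tef lies higher (r 0.66). For Hlf the pooled r is -0.17, with opposite signs in Ad-Ctrl (-0.84) and the rescue group (0.54). None passed the correction over 7 pairs.

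Rora, the ROR activator of the set, measured 22.2, 23.6, 33.6 and 26.0 TPM in Ad-Ctrl, 26.6, 36.6, 26.3 and 32.5 TPM in Ad-shmGULL and 31.5, 28.3, 32.0 and 32.7 TPM in Ad-shmGULL+hGULL. All groups overlapped, with Ad-Ctrl 3 above every mouse but Ad-shmGULL 2. The change after knockdown was 0.21 (95% interval -0.08 to 0.50, limma adjusted p = 0.419) and the rescue group stood 0.25 above control (-0.04 to 0.54, adjusted p = 0.263).

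Of the repressors of CLOCK and BMAL1, Ciart, with the 3 E-boxes shown above, measured 35.8, 43.2, 37.3 and 36.2 TPM in Ad-Ctrl, 26.2, 37.2, 29.4 and 41.8 TPM in Ad-shmGULL and 46.0, 35.3, 37.1 and 32.6 TPM in Ad-shmGULL+hGULL. A pair of knockdown mice lay below every control mouse and the other pair inside the control range. Its change after knockdown was -0.19 (95% interval -0.51 to 0.12, limma adjusted p = 0.489) and that of rescue against knockdown 0.17 (-0.14 to 0.48, adjusted p = 0.660).

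Bhlhe40 measured 72.4, 63.2, 51.5 and 54.9 TPM in Ad-Ctrl mice 1 to 4. It measured 123, 136, 101 and 89.6 TPM in the Ad-shmGULL mice and 102, 86.8, 91.0 and 58.9 TPM in the Ad-shmGULL+hGULL mice. Every knockdown mouse exceeded every control mouse, where 8.99% of all tested features lay apart. The rescue mice ran from the control range up into the knockdown range, with Ad-shmGULL+hGULL 4 as the single one among the controls. The group means were 60.5 ± 9.34, 113 ± 21.0 and 84.7 ± 18.4 TPM (SD, n = 4).

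The rise of Bhlhe40 after knockdown was 0.88 on the log2 scale (SE 0.18, 95% interval 0.50 to 1.26, limma adjusted p = 0.0231; exact two-sided permutation p = 0.0286). Relative to the median change of all tested features, 0.09, it was 0.79. It was positive in all 23 alternatives, from 0.77 to 0.98, with adjusted p from 0.0101 to 0.0740. The call was lost without Ad-Ctrl 2 (adjusted p = 0.0558), Ad-Ctrl 3 (0.0740), Ad-Ctrl 4 (0.0595) or Ad-shmGULL 2 (0.0703), with no filter on low features (0.0534) and in a fit of the compared pair of groups alone (0.0531).

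With hGULL added, Bhlhe40 was 0.41 lower than after knockdown alone (95% interval of the difference -0.80 to -0.03, limma adjusted p = 0.436). It was 0.46 above control (0.08 to 0.85, adjusted p = 0.137), or 0.29 relative to the median of all features in that comparison. Neither difference was called, and array weights alone of the 23 alternatives gave a call for rescue against control (0.55, adjusted p = 0.0313).

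Bhlhe41, its paralog, was the least abundant member, with a mean of 2.86 TPM that lay above 21.2% of the tested features. It measured 2.81, 2.67, 1.38 and 1.98 TPM in Ad-Ctrl, 2.86, 4.59, 2.38 and 2.99 TPM in Ad-shmGULL and 4.87, 3.19, 2.57 and 2.06 TPM in Ad-shmGULL+hGULL. The groups overlapped, and the change after knockdown was 0.39 (95% interval -0.11 to 0.88, limma adjusted p = 0.370). Within a mouse Bhlhe40 was 23.6 to 37.4 times as abundant as Bhlhe41 in Ad-Ctrl, 29.7 to 42.9 times in Ad-shmGULL and 21.0 to 35.4 times in Ad-shmGULL+hGULL.

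**Figure D4:**
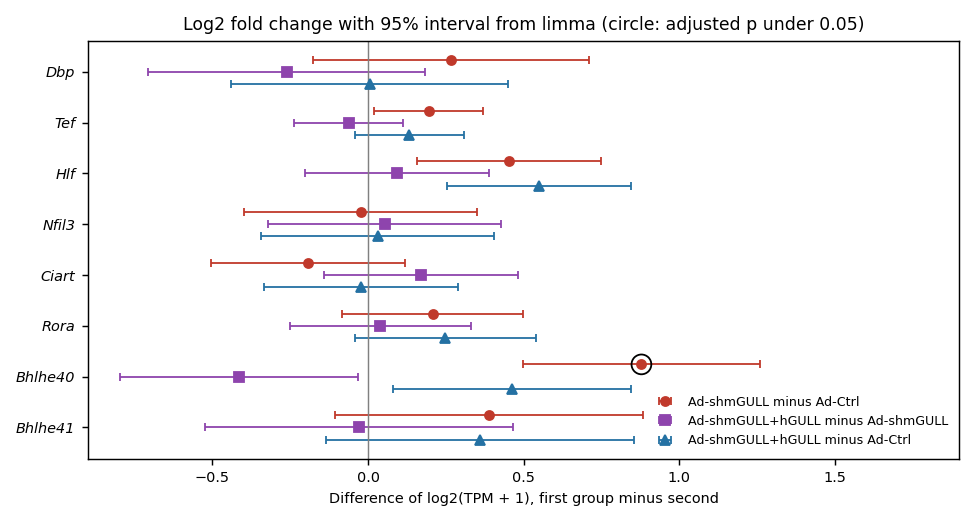
Difference of mean log2(TPM + 1) for the 8 genes in the 3 comparisons, with the 95% interval from limma; a circle marks an adjusted p under 0.05. Bhlhe40 after knockdown (0.88) is the single circled point. The intervals of Hlf and Bhlhe40 lie above 0 in both comparisons with control, and that of Tef does after knockdown.

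In the order of levels, control mice had Dbp first (mean 118 TPM), then Tef (87.0), Bhlhe40 (60.5), Ciart (38.2), Hlf (30.8), Rora (26.4), Nfil3 (25.8) and Bhlhe41 (2.21). The ranges of neighbours overlapped between Dbp and Tef, Hlf and Rora, and Rora and Nfil3, and lay apart elsewhere. After knockdown Bhlhe40 stood second, between Dbp and Tef with overlapping ranges on both sides, and Hlf stood above Ciart in all 4 mice, the reverse of the control mice. In the rescue group Tef was again above Bhlhe40, in all 4 mice, and Hlf remained above Ciart in all 4.

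Counted over the 8 genes, 1 was called after knockdown, 0 in rescue against knockdown and 0 in rescue against control. Of all tested features limma called 3.23%, 0% and 2.15% in the same comparisons. At the threshold of the study, a P under 0.05 before adjustment and a log2 change of more than 0.5 either way, the counts were 1 (Bhlhe40), 0 and 1 (Hlf), beside 7.65%, 3% and 7.49% of all features. Groups lay apart for 2 genes after knockdown (Bhlhe40 and Tef), for 0 in rescue against knockdown and for 1 in rescue against control (Hlf), beside 8.99%, 6.38% and 22.3% of all features. The log2 change was positive in 6, 4 and 7 of the 8 genes, with medians of 0.24, 0.01 and 0.19 beside 0.09, 0.09 and 0.17 over all features. It lay above the median of all features in 6, 2 and 4 of the 8. In rescue against knockdown, limma called 0 features at an adjusted p under 0.05, and 1757 of all features and 1 of the 8 genes had an unadjusted P under 0.05.

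Around these genes, the core clock held a single called gene among its 12 tested genes. Of all tested features 3.23% were called after knockdown and 2.15% in rescue against control. Cry1, a repressor of CLOCK and BMAL1, measured 6.66, 7.37, 6.74 and 7.52 TPM in Ad-Ctrl, 16.2, 17.3, 12.5 and 12.02 TPM in Ad-shmGULL and 11.1, 13.7, 11.7 and 14.0 TPM in Ad-shmGULL+hGULL. It rose by 0.93 after knockdown (limma adjusted p = 0.00677) and by 0.75 in rescue against control (adjusted p = 0.0345). Its groups lay apart from the controls, as did 8.99% and 22.3% of all tested features in these comparisons. The next smallest adjusted p belonged to its paralog Cry2 (0.26, adjusted p = 0.172). The call of Cry1 after knockdown held in all 23 alternatives, while that of rescue against control held in 11 of them. The latter was lost without Ad-Ctrl 2, 3 or 4 or without any 1 of the 4 rescue mice, with an adjusted p of at most 0.142 over all alternatives. After scaling by the median of ratios it was 0.57 (limma adjusted p = 0.109). The median change of the list after knockdown was 0.20, beside 0.09 over all tested features. Npas2 and Fbxl21 were below the filter.

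Of 16 tested genes known as PAR bZIP targets in liver, 5 were called higher and 0 lower after knockdown, and limma called 0 in the other comparisons. Of all tested features limma called 3.23% after knockdown, 0% in rescue against knockdown and 2.15% in rescue against control. The list was chosen with earlier results of these data known, so its counts are a description and no test of the list. At the threshold of the study 8 of the 16 were higher after knockdown, 0 in rescue against knockdown and 6 in rescue against control, with 0 lower in each. That threshold took 7.65%, 3% and 7.49% of all features, counted in both directions. The count called by adjusted p in rescue against control was 0 to 3 when single mice were left out, with 3 without Ad-Ctrl 1 or Ad-shmGULL 1 and 2 without Ad-shmGULL 2 or 3. It reached 1 with a pseudocount of 0.1, 2 with a mean TPM of at least 5 or a replicate block, 3 with only the compared pair of groups and 7 with array weights. The median change of the list after knockdown was 0.40, beside 0.09 over all tested features, and single genes ran in both directions. That median falls in a gap between Por (0.11) and Acot4 (0.69), the smallest change of the 8 genes past the threshold of the study. Lower after knockdown, with none called, were Cyp2c50 (-0.42), Alas1 (-0.34), Cyp7a1 (-0.33), Cyp2a5 (-0.13), Cyp2c37 (-0.13), Ppara (-0.11) and Nr1i3 (-0.10). They too were named after their values were seen. Acot3, an acyl-CoA thioesterase, rose by 1.67 (limma adjusted p = 0.0194), from 7.82 to 13.1 TPM in Ad-Ctrl to 23.7 to 48.9 TPM in Ad-shmGULL. Cyp2c29, a xenobiotic cytochrome P450, rose by 0.996 (adjusted p = 0.0237). The others called were Cyp2b9 (3.72, adjusted p = 0.0332), Cyp2a4 (3.43, adjusted p = 0.0360) and Acot2 (1.29, adjusted p = 0.0399), named after their values were seen. Within Ad-shmGULL, Cyp2b9 ran from 3.65 to 92.8 TPM and Cyp2a4 from 37.1 to 332 TPM. Against control, the rescue group was also higher, by 3.42 for Cyp2b9 (limma adjusted p = 0.0508) and 3.04 for Cyp2a4 (0.0559). For Acot2, Acot3 and Cyp2c29 that difference was 1.07 (0.0706), 1.02 (0.0922) and 0.53 (0.134). These genes have close paralogs, so the split of reads among them is uncertain. The count of 5 fell to 0 without Ad-Ctrl 4 or Ad-shmGULL 2, to 1 without Ad-Ctrl 2, to 2 without Ad-shmGULL 1, and to 3 without Ad-Ctrl 3, Ad-shmGULL 4, Ad-shmGULL+hGULL 2 or Ad-shmGULL+hGULL 4. It was 0 with no filter, 1 with only the compared pair of groups or with array weights, and 3 without the mean-variance trend. Cyp2b13 was below the filter.

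The list of ROR and REV-ERB targets, with 11 tested genes, held Cry1 and Cyp7b1 as genes called after knockdown, beside 3.23% of all tested features. Cyp7b1, an oxysterol hydroxylase of bile acid synthesis, fell by 1.09 on the log2 scale after knockdown (limma adjusted p = 0.0306), from 469 to 672 TPM in Ad-Ctrl to 206 to 503 TPM in Ad-shmGULL, with 1 knockdown mouse, Ad-shmGULL 4, in the control range. Its call was lost without Ad-Ctrl 2, 3 or 4 or without Ad-shmGULL 1 or 2, and also with no filter, with only the compared pair of groups and with array weights, so that it held in 15 of 23 alternatives (adjusted p at most 0.113). The median change of that list was 0.12 after knockdown, beside 0.09 over all tested features.

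**Figure D5:**
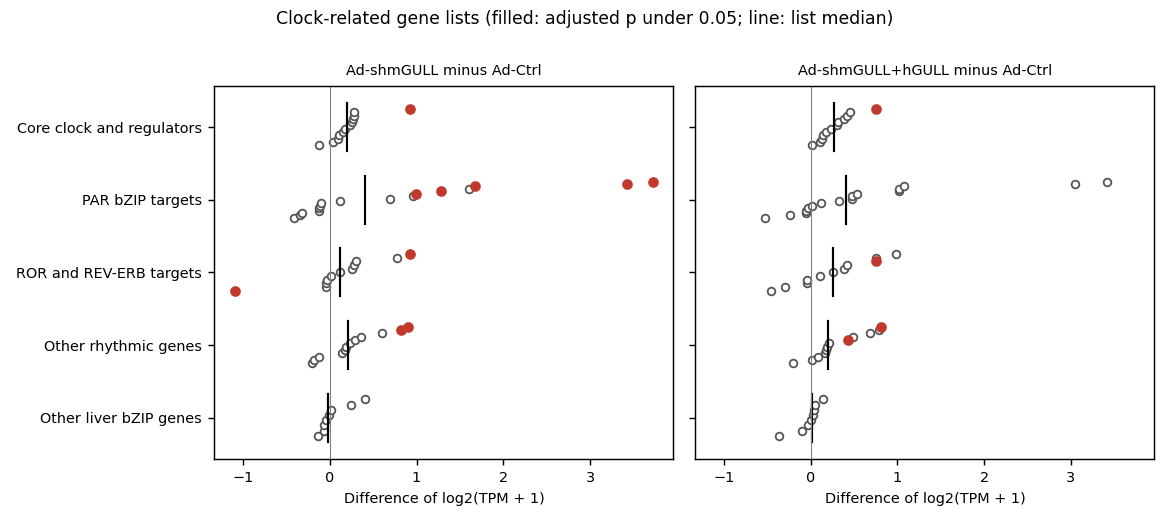
Difference of mean log2(TPM + 1) of each tested gene in 5 clock-related lists, for knockdown against control and rescue against control, which share the control mice. Filled points passed limma at an adjusted p under 0.05 and lines are list medians, at 0.40 for PAR bZIP targets after knockdown, where 5 of 16 points are filled, and at 0.20 for the core clock, where 1 of 12 is. The 0.40 falls in a gap between Por (0.11) and Acot4 (0.69), with other points of that list below 0. Over all tested features the median after knockdown was 0.09 and 3.23% passed. The lists were chosen with earlier results of these data known.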

How the data were processed

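Liver RNA-Seq of 12 samples was grouped by the treatment labels. The authors trimmed reads with fastp 0.23.2, checked them with FastQC 0.11.8, aligned them with HISAT2 2.2.1.0 to GRCm38.p6, counted them on GENCODE genes (the submitters' notes name featureCounts of Subread 2.0) and deposited TPM, whose total is equal across samples. Depth is therefore unknown and no counting interval or floor is given. Features with a mean of at least 1 TPM were tested in R 4.3.3 with limma 3.58.1 (two-sided, mean-variance trend, pseudocount 1 TPM, no further scaling, no covariate). Tested on simulated data for knockdown against control (16378 genes, 200 of them changed), it called 77% of log2 changes of 1 and 96% of log2 changes of 2, with 4.95% of all calls false. The simulated spread was normal and independent between genes, with as many rises as falls and no shift of the median. These shares therefore need not hold for the calls in the real values. Correlations used 100000 permutations within groups in Python 3.11.15, two-sided, and figures matplotlib 3.10.9.

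The members and lists were chosen with earlier results of these data known. Named beside the 8 genes are, per list, the 2 genes with the smallest adjusted p after knockdown and every called gene of lists with at most 4. Most alike genes are the 3 with the highest Pearson r over 12 mice. Alternatives were another pseudocount, other filters, scalings, fits and weights, a replicate block and leaving out each mouse. No column was left unused. The values of 1 gene list are not reported here.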

Additional observations from a re-analysis of the deposited data

How the results depend on the processing

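Of the log2 fold changes of the 8 genes under 23 alternatives, 497 kept their direction and side of the threshold, 6 lost a call (Bhlhe40 after knockdown), 7 gained one and 39 changed sign, all of these between groups that were not called different. After knockdown the number of the 8 genes called was 0 with no filter and 0 with only the 2 groups compared, and 0 to 1 when single mice were left out. In rescue against control it was 1 with a mean TPM of at least 5, 1 with only the 2 groups compared, 2 with array weights, 1 at the threshold of the study and 0 to 1 when single mice were left out. The cause of these changes was not tested.

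Signs turned as follows in rescue against knockdown. Hlf was -0.0040 with quantile normalization. Nfil3 was -0.0369 with median-of-ratios scaling, -0.0489 with quantile normalization and -0.0116 when rescaled without the 20 highest genes. Rora was -0.0508, -0.0667 and -0.0253 under the same settings. In rescue against control they gave -0.198, -0.131 and -0.0884 for Dbp, which was -0.0245 when rescaled to the protein-coding sum, and -0.166, -0.151 and -0.0604 for Nfil3, which was -0.127 with array weights. Tef was -0.0699 with median-of-ratios scaling and -0.0268 with quantile normalization, and Ciart was 0.0016 with array weights.

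With single mice left out, Nfil3 ranged from -0.142 to 0.0819 after knockdown. In rescue against knockdown Hlf ranged from -0.0017 to 0.184, Nfil3 from -0.0712 to 0.134, Rora from -0.0249 to 0.129 and Bhlhe41 from -0.207 to 0.117. In rescue against control Dbp ranged from -0.120 to 0.180, Nfil3 from -0.0940 to 0.135 and Ciart from -0.119 to 0.0424. Bhlhe41 has no value with a mean TPM of at least 5.

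A replicate block on the sample numbers left Bhlhe40 at 0.88 after knockdown (limma adjusted p = 0.0101), with 1, 0 and 0 of the 8 genes called, and moved the features called in rescue against control from 352 to 71. Same-numbered samples correlated from -0.24 to 0.15 in their deviations, and most samples did not correlate best with their own number in another group. Between rescue and knockdown, samples 2, 3 and 4 did correlate best with their own number (r 0.15, 0.10 and 0.055). The numbers were not taken as pairs in the main fit. Features called after knockdown were 399 higher and 130 lower as deposited and 332 and 351 after median-of-ratios scaling. In rescue against control they were 348 and 4, and 10 and 1. The 529 features called after knockdown became 236 with no filter, 33 with only the 2 groups compared, 344 without the mean-variance trend and 165 to 1057 when single mice were left out. The 352 of rescue against control became 9 with no filter, 568 with a mean TPM of at least 5, 11 with quantile normalization or when rescaled without the 20 highest genes, 16 when rescaled to the protein-coding sum, 1693 with only the 2 groups compared, 35 without the trend, 3184 with array weights and 3 to 1068 when single mice were left out.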

Other observations

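Other rhythmic liver genes held 2 calls among 12 tested after knockdown, beside 3.23% of all tested features. Wee1, a kinase that restrains entry into mitosis, rose by 0.82 after knockdown (limma adjusted p = 0.0194) and by 0.81 in rescue against control (adjusted p = 0.0390), from 16.7 to 26.9 TPM in Ad-Ctrl to 30.4 to 42.3 TPM in Ad-shmGULL and 29.0 to 41.0 TPM in Ad-shmGULL+hGULL. Its call after knockdown was lost without Ad-Ctrl 2, 3 or 4 or Ad-shmGULL 2 (adjusted p up to 0.0665) and with only the compared pair of groups. The call in rescue against control held in 9 of 23 alternatives and was lost without Ad-Ctrl 2, 3 or 4, Ad-shmGULL 4 or any 1 of the rescue mice (adjusted p up to 0.142), and after scaling by the median of ratios the difference of rescue and control was 0.61 (adjusted p = 0.109). Lonrf3 rose by 0.91 after knockdown (adjusted p = 0.0374), and this call held in 10 of 23 alternatives. The heat shock protein gene Hspa8 rose by 0.42 in rescue against control (adjusted p = 0.0414), a call that held in 8 of 23 alternatives. The list's median change after knockdown was 0.21, beside 0.09 over all tested features.

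Other bZIP genes of liver gave no call among 8 tested with limma. The 2 with the smallest adjusted p after knockdown were Atf5 (0.40, adjusted p = 0.130, unadjusted P = 0.0138) and Cebpa (0.25, adjusted p = 0.239, unadjusted P = 0.0466). The median change of that list after knockdown was -0.02, beside 0.09 over all tested features. Ddit3 was left out because more than 1 feature carries its name.

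Over the 12 mice, the levels most like each gene by Pearson r on log2(TPM + 1) were picked as the highest of 16365 tested features with a unique name, so no p is given, and group differences contribute to each r. For Dbp they were Zfp276 (r 0.91), Spata2l (0.88) and Plekha6 (0.84). For Tef they were Klhl26 (0.92), Bcl2l1 (0.91) and Nrn1 (0.90), and for Hlf Sos1 (0.99), Dhdh (0.98) and Slc35a5 (0.97). Nfil3 was most like Chp1 (0.91), Mat1a (0.87) and Adam23 (0.86). Ciart was most like Gch1 (0.95), A930004J17Rik (0.91) and Gm13349 (0.91), and Rora like Mfap1a (0.95), Tmppe (0.93) and Cobll1 (0.92). Bhlhe40 was most like Mid1ip1 (0.95), with mean levels of 27.2 TPM in Ad-Ctrl, 52.6 TPM in Ad-shmGULL and 44.0 TPM in Ad-shmGULL+hGULL, followed by Vwce (0.95) and Cd9 (0.94). Bhlhe41 was most like Zfp526 (0.98), Nab2 (0.94) and Acvr1b (0.91).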
